A study of Rattus norvegicus with 4 samples.

Results

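The 9 genes described here code for subunits of the NADPH oxidases (Cybb, Cyba, Nox1, Nox4, Ncf1, Ncf4), for the small GTPases that switch these enzymes on (Rac1, Rac2), and for xanthine oxidoreductase (Xdh), another source of superoxide. They were taken by gene symbol from tables of 31038 rows, and all 9 had a row. The list was chosen with earlier results of these data known. Counts of ribosome-protected fragments, the stretches of messenger RNA covered by translating ribosomes, were compared between 2 libraries of rat myocardial cells given an siRNA against eIF3m (si3m) and 2 libraries given a control siRNA (siNT). eIF3m is a subunit of eIF3, which helps to load messenger RNA onto the small ribosomal subunit. All cells were grown in the same serum-containing medium and all lysates were made with cycloheximide, per the labels' protocols. No label names an ischemia, a hypoxia or another stress treatment for any library. The cells are labelled NRVM, the usual short name of neonatal rat ventricular myocytes, but the protocols name embryonic rat heart. The labels do not tell whether the pair of libraries in a group stems from different cultures, and the p-values therefore reflect the spread between libraries, which may be only technical. Values are footprint abundance, in which the amount of a messenger RNA and its translation are not separated.

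NADPH oxidases pass electrons from NADPH across a membrane to oxygen. The catalytic subunits Cybb (also called gp91phox or NOX2), Nox1 and Nox4 are held in the membrane by the partner p22phox, which Cyba encodes. Cybb and Nox1 make superoxide only when cytosolic organizer and activator subunits and an active Rac protein join them, whereas Nox4 needs Cyba alone, is active without such signals, and gives mostly hydrogen peroxide. Superoxide combines with nitric oxide to form peroxynitrite, which nitrates tyrosines in proteins, the damage named in the series title. In the heart, Nox4 and Cybb are the best studied catalytic subunits, Nox1 is better known from colon and vascular smooth muscle, and xanthine oxidoreductase is long known as an oxidant source on reperfusion.

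The counts were deep enough for a test in 4 of the 9 genes, and 2 of these 4 passed the threshold, in opposite directions. Cyba rose 1.79-fold in si3m and Rac1 fell 1.11-fold. Nox4 and Xdh did not pass. As background, 27.8% of the 12672 genes tested in the whole table passed, 14.0% higher and 13.9% lower in si3m, so a pair of calls in opposite directions among 4 genes does not set this group apart from other genes. A further 4 genes, Cybb, Ncf1, Ncf4 and Rac2, were at the counting floor in all 4 libraries, and Nox1 lay just above it. Genes were tested with edgeR by quasi-likelihood, with p-values adjusted over all tested genes (Benjamini-Hochberg) and a threshold of 0.05. The low-count filter asked for the equivalent of 10 counts in a library of median size, in 2 libraries. CPM values are counts scaled to a common library size, adjusted with TMM (a factor per library that centres the fold changes of most genes), so a rise or fall is relative to other footprints.

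Most deposited counts were even numbers (94.9% to 97.3% of those above 0 in a library), a pattern that arises when each fragment adds 2 to the count. The floor was set at 3 fragments, an allowance for counting error at a count of 0, or 6 deposited counts at 2 per fragment. Counts above 0 but not above 6 were also called at the floor, although such rows did hold reads. The floor equalled 0.707 and 0.928 CPM in si3m replicates 1 and 2, against 1.49 and 1.52 CPM in siNT replicates 1 and 2, because depth differed with group. Total counts were 8687598 and 6726969 in si3m and 3924434 and 3835750 in siNT. Floors and counting intervals cover counting error only. The siRNA target behaved as labelled, with Eif3m at 1168 and 1232 deposited counts in si3m and 2136 and 1774 in siNT. Scaled for depth, Eif3m fell to 164 ± 37.5 CPM in si3m, against 491 ± 57.3 CPM in siNT (SD, n = 2 each; 3.01-fold lower, edgeR adjusted p = 3.41e-08). With 2 libraries per group, an exact permutation test of a single value cannot give a two-sided p below 0.333, so none is reported.

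**Figure D1:**
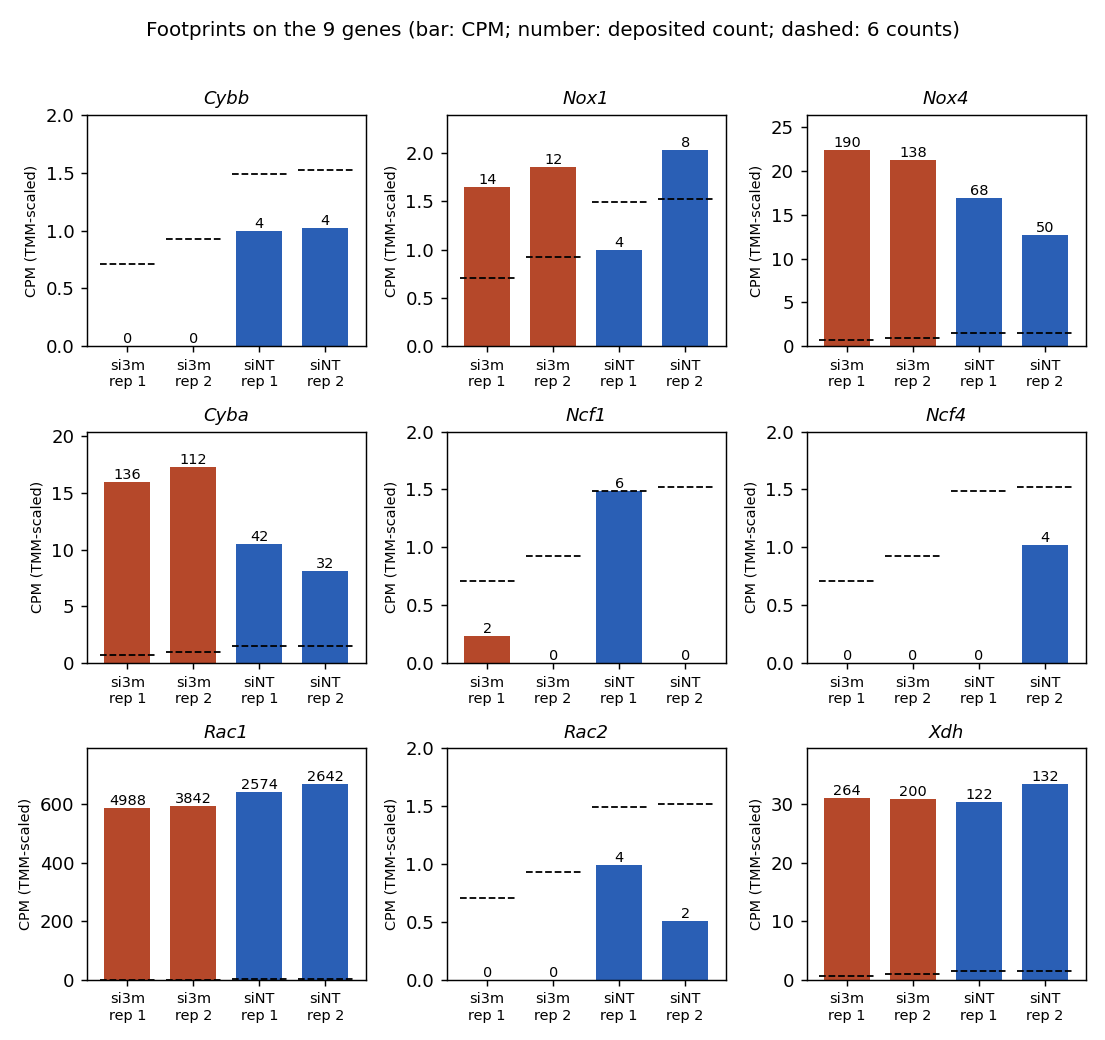
Bars show TMM-scaled CPM (y axis, own scale per gene) of each gene in the 2 si3m and 2 siNT libraries, with the deposited count on each bar and the floor of 6 counts as a dashed line. Cybb, Ncf1, Ncf4 and Rac2 stay at or under the dashed line in every library, whereas Nox4, Cyba, Rac1 and Xdh stand well above it.

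Among the catalytic subunits, Nox4 was the only one with enough footprints for a test. Deposited counts of Nox4 were 190 and 138 in the si3m libraries and 68 and 50 in the siNT libraries. These counts equalled 22.4 and 21.3 CPM in si3m, against 16.9 and 12.7 CPM in siNT. Both si3m values lay above both siNT values, and the siNT libraries differed from each other more than the si3m libraries did. Nox4 averaged 21.9 ± 0.727 CPM in si3m and 14.8 ± 2.99 CPM in siNT (SD, n = 2 each). The log2 fold change was 0.56 (SE 0.24), or 1.48-fold with a 95% interval of 1.04 to 2.09, and it did not pass after adjustment (edgeR adjusted p = 0.0925, unadjusted p = 0.0315). Without siNT replicate 1 it passed (log2 0.79, adjusted p = 0.0228), and it passed too when all libraries were thinned once to the same depth (log2 0.71, adjusted p = 0.0439). Without siNT replicate 2 the log2 value was 0.38 (adjusted p = 0.311).

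Nox1 had deposited counts of 14 and 12 in si3m and 4 and 8 in siNT, or 1.65 and 1.86 CPM in si3m against 0.996 and 2.03 CPM in siNT. The groups overlapped, and siNT replicate 1 was at the floor. In fragments summed over the libraries of each group, 13 in si3m against 6 in siNT, the scaled ratio was 1.15 with a 95% counting interval of 0.409 to 3.7 (exact Clopper-Pearson), so neither a rise nor a fall was detectable at this depth. In the RefSeq annotation of GRCr8, a rat assembly other than that of the files, Nox1 overlaps Cstf2 and a predicted locus. Its few counts are therefore uncertain. Cybb had 0 counts in both si3m libraries and 4 in each siNT library, all under the floor, so no fold is given. In fragments, 0 in si3m against 4 in siNT, the 95% counting interval of the scaled ratio ran from 0 to 0.806. That interval covers counting error only, and with no low-count filter Cybb did not pass edgeR (adjusted p = 0.229).

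Cyba, the membrane partner shared by these catalytic subunits, was the gene that rose. Its deposited counts were 136 and 112 in si3m and 42 and 32 in siNT. Cyba stood at 16.0 and 17.3 CPM in the si3m libraries, against 10.5 and 8.13 CPM in the siNT libraries. The groups did not overlap, and the gap between them was wider than the distance between libraries of either group. Cyba averaged 16.7 ± 0.926 CPM in si3m and 9.29 ± 1.64 CPM in siNT (SD, n = 2 each). The log2 fold change was 0.84 (SE 0.27; edgeR adjusted p = 0.0295), or 1.79-fold with a 95% interval of 1.20 to 2.66. Of the 12672 tested genes, 9.67% had a larger log2 fold change. The siNT value rests on 37 fragments in all, against 124 in si3m.

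The Cyba call depended on the libraries and the tool, while its direction was up in all 14 alternatives. It was lost in DESeq2 (log2 0.83, adjusted p = 0.106), with libraries thinned to the same depth (log2 0.62, adjusted p = 0.151), without siNT replicate 2 (adjusted p = 0.0893), without si3m replicate 1 (adjusted p = 0.0819) and without si3m replicate 2 (adjusted p = 0.139). With total count scaling it just passed (log2 0.76, adjusted p = 0.0469).

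**Figure D2:**
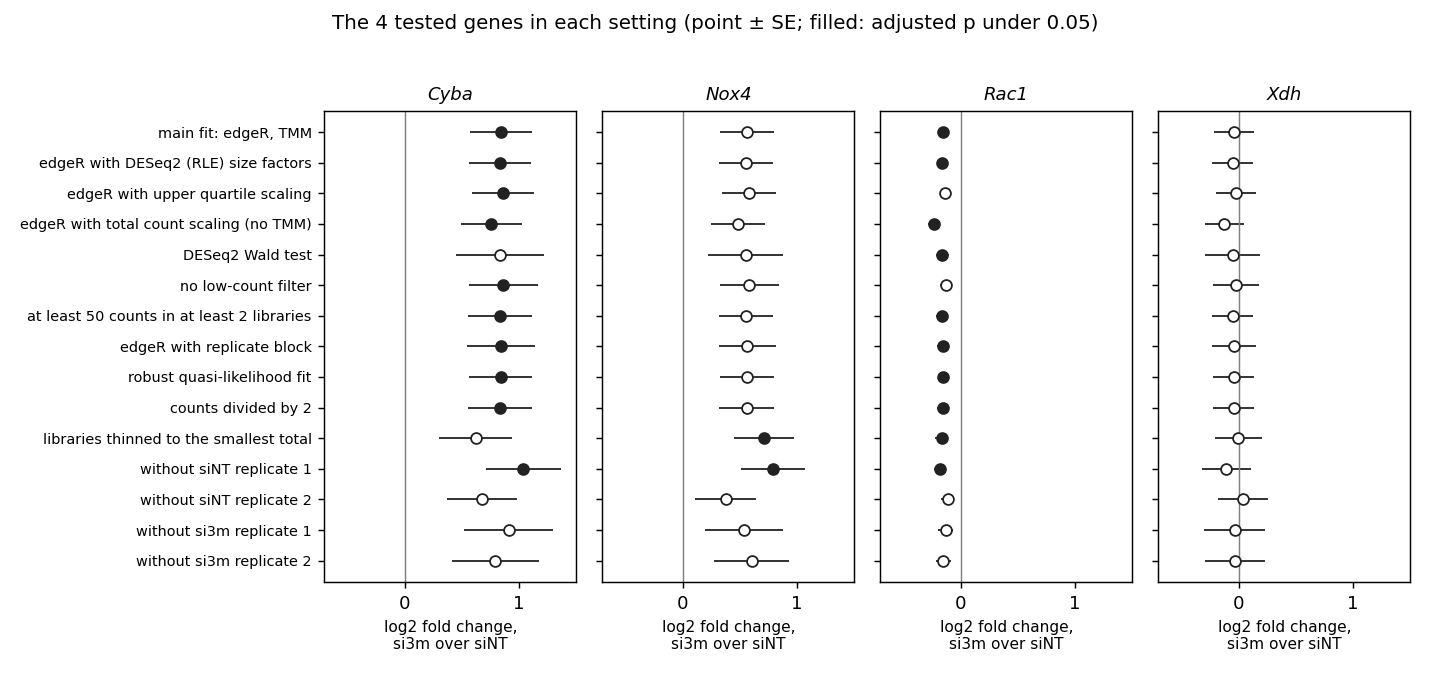
Points show the log2 fold change of si3m over siNT (x axis) of the 4 tested genes in the main fit and 14 alternative settings (rows), with SE as a line, filled where the adjusted p was under 0.05. Cyba and Nox4 lie right of 0 and Rac1 left of 0 in every row, with filled and open points in each of these 3 genes, and Xdh is open throughout.

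Footprints on the cytosolic subunits were not detectable above the floor. Ncf1 encodes p47phox, the organizer that carries the cytosolic complex to the membrane, and had deposited counts of 2 and 0 in si3m and 6 and 0 in siNT. Ncf4 encodes p40phox, which binds a phosphoinositide of the phagosome membrane, and had 0 counts in both si3m libraries and 0 and 4 in siNT. No value of Ncf1 or Ncf4 exceeded the 6 counts of the floor, so no fold is given for either. The 95% counting intervals of their scaled ratios ran from 0.00338 to 2.21 for Ncf1 and from 0 to 2.83 for Ncf4.

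Rac1, the GTPase found in most cell types, had the highest counts of the 9 genes, not divided by gene length, and so the narrowest error. Its deposited counts were 4988 and 3842 in si3m and 2574 and 2642 in siNT, which equalled 587 and 594 CPM in si3m against 641 and 671 CPM in siNT. Both si3m values lay below both siNT values, though the distance between the groups was small. Rac1 averaged 591 ± 4.89 CPM in si3m and 656 ± 21.6 CPM in siNT (SD, n = 2 each). In edgeR the log2 fold change was -0.15 (SE 0.049, adjusted p = 0.0314), a 1.11-fold fall that 37.3% of tested genes exceeded in the downward direction. The call was lost with upper quartile scaling (adjusted p = 0.0535), with no low-count filter (adjusted p = 0.0566), without siNT replicate 2 (adjusted p = 0.125), without si3m replicate 1 (adjusted p = 0.180) and without si3m replicate 2 (adjusted p = 0.113). With total count scaling, which moved the median of all genes to -0.06, Rac1 fell by 0.23 on the log2 scale (adjusted p = 0.0032). RefSeq lists a gene named Rac1l in GRCr8 that has no row in these files, and reads shared with such a copy would make the Rac1 count uncertain.

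Rac2, the form of blood cells, had 0 counts in both si3m libraries and 4 and 2 in siNT, all under the floor, with a 95% counting interval of the scaled ratio from 0 to 1.29. Rac2 overlaps predicted loci in GRCr8, so its few counts are uncertain. Cybb, Ncf1, Ncf4 and Rac2 are the genes among the 9 best known from phagocytes. Together they had 2 and 0 deposited counts in the si3m libraries and 14 and 10 in the less deeply sequenced siNT libraries. These 4 were put together after their values were seen, and no test was made of the sum.

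The summed level of leukocyte markers was lower in si3m, though only Adgre1 passed the test. Of 16 leukocyte markers, 12 had at most 6 counts in every library, and 4 of those, Tyrobp, Spi1, Mpo and Ms4a1, had 0 throughout. Cd3e, a T cell marker, ran the other way within the floor, at 6 counts in each si3m library and 2 in each siNT library. The 16 summed to 16.8 and 17.2 CPM of the library total in si3m, against 34.7 and 43.3 CPM in siNT, with no overlap. Adgre1, a macrophage surface receptor, fell (edgeR adjusted p = 4.09e-04), with 4 and 0 deposited counts in si3m and 24 and 34 in siNT. Adgre1 passed the low-count filter through its siNT counts alone, so the direction of its call was fixed by the filter. It overlaps a pseudogene and a predicted locus in GRCr8, so its counts are uncertain, and the macrophage markers Cd68 and Itgam were at the floor in every library. In fragments, 2 against 29, the scaled ratio of Adgre1 was 0.0367 with a 95% counting interval of 0.00424 to 0.145. That interval covers counting error only and uses the same counts as the call, so it adds no separate evidence. Cd14, which other cells express too, held most of the summed counts in every library. It stood at 14.6 ± 0.342 CPM in si3m and 22.1 ± 1.03 CPM in siNT (SD, n = 2 each), and did not pass (edgeR adjusted p = 0.0612). In such bulk libraries fewer cells of a type and less RNA per cell cannot be told apart, and the part of leukocyte RNA in the phagocyte subunits was not tested.

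Xdh, the enzyme of the last steps of purine breakdown, did not pass the test. Its deposited counts were 264 and 200 in si3m and 122 and 132 in siNT, or 31.1 and 30.9 CPM in si3m against 30.4 and 33.5 CPM in siNT. The si3m values fell between the siNT values. Xdh averaged 31.0 ± 0.107 CPM in si3m and 32.0 ± 2.24 CPM in siNT (SD, n = 2 each), with a log2 difference of -0.04 (SE 0.18, adjusted p = 0.887 in edgeR). The 95% interval of the difference ran from a log2 of -0.42 to 0.33, which leaves room for changes smaller than those bounds in either direction. Without siNT replicate 2 the log2 value was 0.04 (adjusted p = 0.928). Thus 3 of the 4 tested genes, Cyba, Nox4 and Rac1, had groups that did not overlap, where the groups of 63.9% of all tested genes did not.

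The cells' own markers bear on which genes could be read. Cardiomyocyte markers were sparse for a culture labelled as myocytes, with 6 of 12 at the floor in every library and Tnni3, Myl7 and Nppa at 0 throughout. They summed to 23.3 and 32.7 CPM of the library total in si3m and 36.2 and 26.1 CPM in siNT. These sums overlapped although both tested members passed, in opposite directions. Pln held most of the siNT sum, with 106 of 142 and 64 of 100 deposited counts. Of the untested markers, Myh6, Actc1 and Actn2 had higher CPM in both si3m libraries, at only 2 to 16 counts in a library. Myh7 overlapped between groups, and the rest were at the floor. Tnnt2, troponin T of the heart, rose to 15.7 ± 1.49 CPM in si3m, against 6.54 ± 0.0947 CPM in siNT (SD, n = 2 each; adjusted p = 0.00417 in edgeR, log2 1.25, SE 0.29). Pln, which restrains the calcium pump of the sarcoplasmic reticulum and overlaps Cep85l in GRCr8, fell to 7.31 ± 2.35 CPM in si3m, against 21.3 ± 7.16 CPM in siNT (SD, n = 2 each; log2 -1.56, SE 0.31, adjusted p = 0.00149). Fibroblast markers, 10 in all, summed to 15137 and 14943 CPM in si3m and 11316 and 11190 CPM in siNT, with no overlap. Of the 7 fibroblast markers tested, 6 were higher and Fn1 was lower (edgeR adjusted p = 2.62e-04), beside 14.0% higher and 13.9% lower of all tested genes. Among the 6, Dcn had 24 and 20 deposited counts in si3m and 0 in both siNT libraries. It passed the low-count filter through si3m alone, which fixed its direction. Of the untested markers, Lum had 16 and 2 counts in si3m and 0 in both siNT libraries. The groups overlapped for Pdgfra, and Tcf21 was at 0 in every library. Smooth muscle markers summed to 3571 and 3580 CPM in si3m and 3246 and 3222 CPM in siNT, with 1 higher, 1 lower and 4 not past the threshold. Of 7 endothelial markers, 4 were at the floor throughout, Cdh5 and Emcn at 0. The matrix genes Col1a1, Col1a2, Col3a1, Postn and Fn1 held nearly all of the fibroblast sum. Col1a1 stood at 6750 ± 89.7 CPM in si3m, against 3800 ± 73.7 CPM in siNT (SD, n = 2 each). The fibroblast sum thus follows matrix genes more than the other markers of the list. The fibroblast sum was higher in si3m, as was Cyba in the main fit, while Nox4 did not pass the test. A link between the sum and these genes was not tested.

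**Figure D3:**
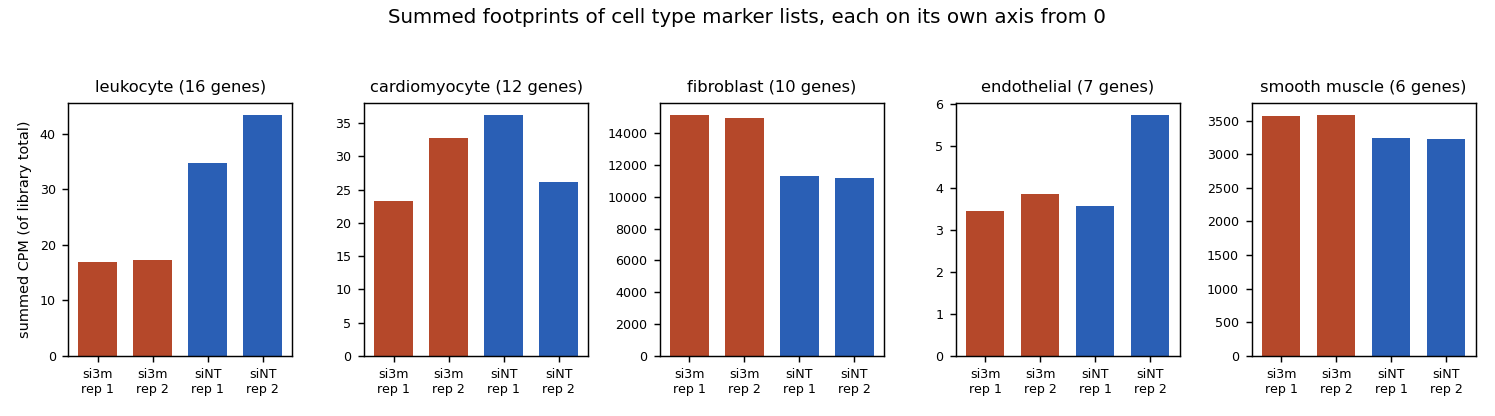
Bars show the summed CPM of the library total (y axis, own scale per panel, from 0) of 5 marker lists in the 2 si3m and 2 siNT libraries. The leukocyte sum is lower and the fibroblast sum higher in both si3m libraries, whereas the cardiomyocyte sum, in which Tnnt2 was higher and Pln lower in si3m, overlaps between groups.

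Genes that act around these enzymes were drawn up as 6 lists of 46 genes, of which 45 had a row and 31 had enough counts to be tested. Of these 31, 4 were higher and 2 lower in si3m, or 19.4%, beside the 27.8% of all tested genes. Their median log2 fold change was 0.06, beside 0.02 over all tested genes.

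Other oxidase subunits and maturation factors gave no call among 3 tested genes. Duox1, an oxidase that makes hydrogen peroxide and is best known from thyroid and airway, had 488 and 390 deposited counts in si3m and 232 and 186 in siNT (log2 0.16, SE 0.14, adjusted p = 0.424). Its relative Duox2 had 66 and 72 counts in si3m and 54 and 22 in siNT (log2 -0.02), and its maturation factor Duoxa1 had 128 and 82 counts in si3m and 30 and 52 in siNT (log2 0.43, adjusted p = 0.323). Duoxa1 depended on the siNT libraries, with a log2 of 0.081 without siNT replicate 1 and of 0.90, past the threshold, without siNT replicate 2 (adjusted p = 0.0381). The groups overlapped for each of these 3 genes. Noxo1 and Noxa1 (the organizer and activator that Nox1 uses), Nox3 and Duoxa2 were at the floor in every library, with Nox3 and Noxa1 at 0. Ncf1, Ncf4, Noxo1 and Noxa1 were thus all at the floor.

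Regulators of Rac went both ways. Racgap1, a GTPase-activating protein for Rac and its relatives that acts in cytokinesis, rose 1.83-fold (log2 0.88, SE 0.16, edgeR adjusted p = 8.48e-04). It stood at 124 and 103 CPM in si3m and 76.9 and 47.3 CPM in siNT, with siNT replicate 2 the lowest library. Without siNT replicate 2 the log2 value was 0.57, still past the threshold, and in DESeq2 the call was lost (adjusted p = 0.0682). Rap1gds1, a chaperone and exchange factor for small GTPases, rose 1.44-fold, to 113 ± 7.62 CPM in si3m against 78.3 ± 0.245 CPM in siNT (SD, n = 2 each; adjusted p = 9.62e-04). Trio, an exchange factor that activates Rac1, fell 1.45-fold, to 100 ± 5.91 CPM in si3m against 146 ± 4.65 CPM in siNT (SD, n = 2 each; adjusted p = 2.42e-04). The other 6 tested regulators did not pass, among them Arhgdia, which holds Rac in the cytosol (log2 0.20, adjusted p = 0.112), Dock1 (log2 0.09) and Arhgef7 (log2 -0.24). Without siNT replicate 1, Arhgdia (log2 0.29, adjusted p = 0.0299) and Dock1 (log2 0.35, adjusted p = 0.0225) passed. Rap1gds1, Trio and Dock1 each overlap another gene in the GRCr8 annotation, so their counts are uncertain.

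Among oxidase partners and kinases, 2 of 8 tested genes rose and 6 did not pass. P4hb, a protein disulfide isomerase reported to bind NADPH oxidase subunits, rose 1.27-fold, to 704 ± 17.8 CPM in si3m against 556 ± 17.3 CPM in siNT (SD, n = 2 each; edgeR adjusted p = 9.36e-05). Pak1, a kinase that Rac activates, rose 1.26-fold, to 141 ± 9.09 CPM in si3m against 112 ± 1.44 CPM in siNT (SD, n = 2 each; adjusted p = 0.00866). The Pak1 call was lost without si3m replicate 1 (adjusted p = 0.108), and Pak1 overlaps other genes in GRCr8. Prkca, a protein kinase C (log2 0.30, adjusted p = 0.0821), and the Nox1 and Nox4 scaffold genes Sh3pxd2a (log2 -0.21, adjusted p = 0.0712) and Sh3pxd2b (log2 -0.25, adjusted p = 0.234) did not pass. Sh3pxd2a fell past the threshold in 5 of 14 alternatives, among them total count scaling (adjusted p = 0.0188), the stricter low-count filter (adjusted p = 0.0405) and without siNT replicate 2 (adjusted p = 0.0107), and Prkca passed with thinned libraries (adjusted p = 0.0471).

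Enzymes that make the molybdenum cofactor of Xdh, and Mocos, which adds sulfur to it, gave no call among 4 tested genes, with log2 values of 0.25 for Mocos, 0.15 for Mocs2, -0.03 for Mocs1 and -0.56 for Mocs3 (SE 0.42, adjusted p = 0.361). Of 4 tested other sources of superoxide or peroxide, 1 fell and 3 did not pass. Maoa, the mitochondrial monoamine oxidase that releases hydrogen peroxide, fell 1.51-fold, to 123 ± 8.46 CPM in si3m against 186 ± 9.45 CPM in siNT (SD, n = 2 each; edgeR adjusted p = 4.38e-05), and passed in all 14 alternatives. Aox1 (log2 -0.36), Ero1a (log2 -0.04) and Por (log2 0.01) did not pass. Of the superoxide dismutases, which turn superoxide into hydrogen peroxide, Sod1 (log2 -0.08, adjusted p = 0.544) and Sod2 (log2 -0.23, adjusted p = 0.148) did not pass, and neither did Ccs, the copper chaperone of Sod1 (log2 0.41, adjusted p = 0.0701). Sod3, the secreted form, had too few counts for a test, at 10 and 16 in si3m and 0 and 6 in siNT.

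**Figure D4:**
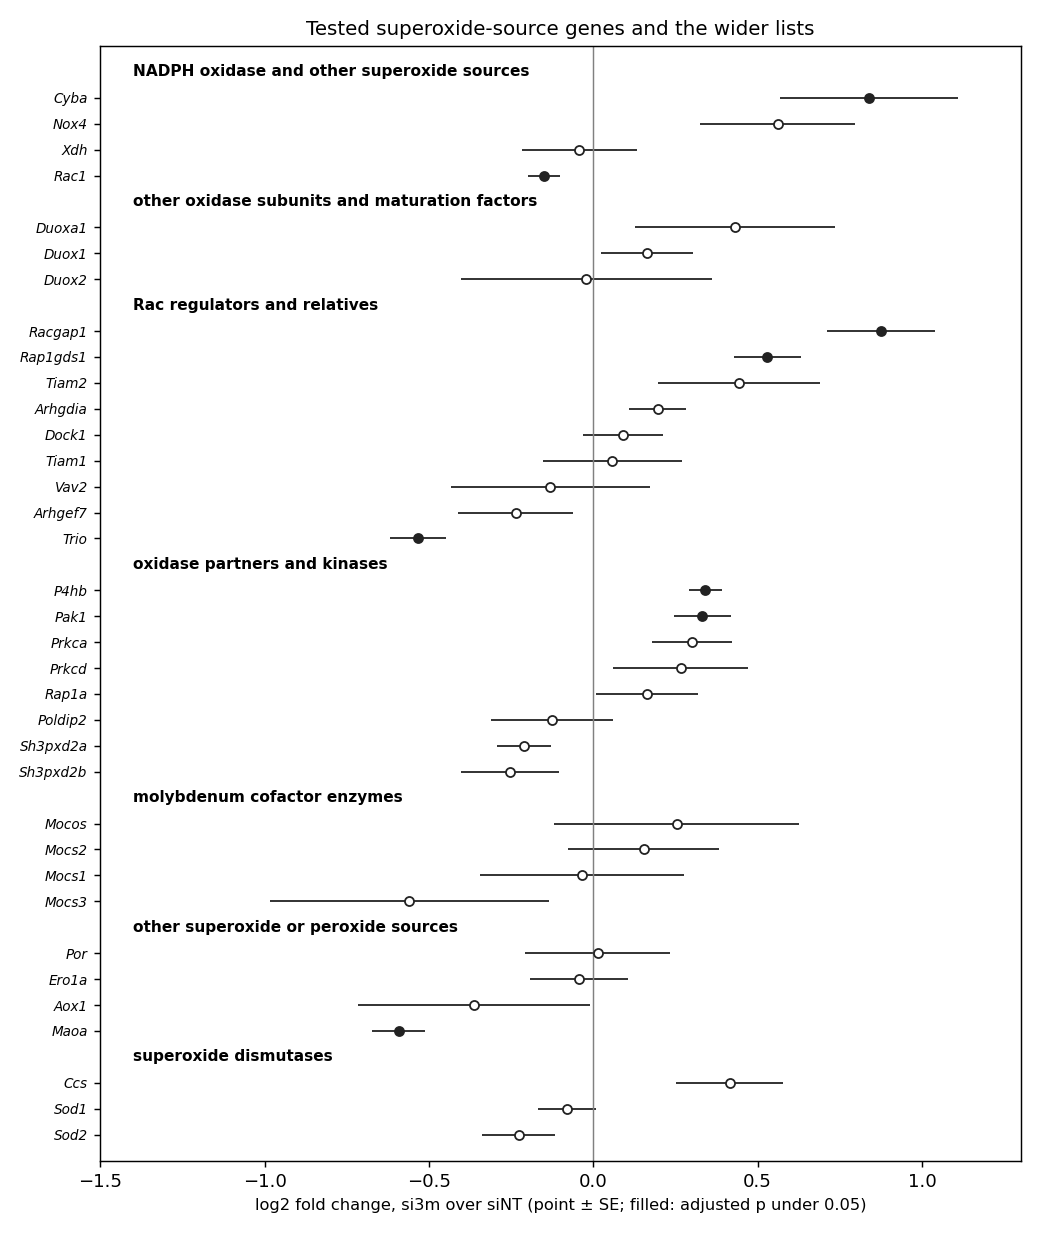
Points show the log2 fold change of si3m over siNT (x axis) of each tested gene, grouped by list, with SE as a line, filled where the edgeR adjusted p was under 0.05. Filled points lie on both sides of 0, with Cyba and Racgap1 farthest right and Trio and Maoa farthest left among them.

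The genes most like each tested member across the 4 libraries were sought among 7768 genes with at least 10 mean CPM, by the root mean square distance of log2 CPM centred on each gene's mean. Cyba lay nearest to Sqle and S100a11 (distance 0.022 for both), and 102 genes lay within 0.1. Nox4 lay nearest to Exosc3 (0.025) and Tex2 (0.027), with 126 genes within 0.1. For Rac1, Hivep2 and Rbsn were nearest (0.011 for both), with 1238 genes within 0.1, and for Xdh, Ttc27 (0.012) and Pxdn (0.015), with 1083. With only 4 libraries many genes share each pattern.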

How the data were processed

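The deposited files hold raw counts per gene symbol for 4 ribosome profiling libraries, whole numbers with no normalization by the authors. The submitters' processing notes name the genome build rn6 and the tools featureCounts, HISAT2 2.2.1, Trimmomatic 0.40, DESeq2 and limma. What each tool did, which annotation was counted, and how strand and multiply matching reads were handled is not given in the sources used here, so reads of overlapping genes or near-identical copies cannot be assigned with certainty. In 27 rows a spreadsheet had turned the symbol into a date, and these rows stayed in the fit.

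Counts were compared in edgeR 4.0.16 (R 4.3.3) with filterByExpr (minimum count 10), TMM, glmQLFit and a two-sided glmQLFTest, p-values adjusted by Benjamini-Hochberg over 12672 genes and no replicate block. The procedure was run on simulated data. For changed genes, its pass mark covered only changes larger than those of Cyba and Rac1. SE and 95% intervals come from the quasi-likelihood F statistic. Members were read from this fit. Named besides them were each passing gene of the wider lists and up to 3 others a list with the highest counts, the 2 nearest patterns per tested member, and genes said to be chosen after their values were seen. Mocs3 and the named markers were also named after their values were seen. The members and lists were chosen with earlier results of these data known. Overlaps between genes come from RefSeq for GRCr8, used for names and neighbours only. Other named genes overlap a gene or locus there too, among them Sh3pxd2a, Sh3pxd2b, Mocs1, Aox1, Ero1a, Prex1, Dock2, Prkcb, Col1a1 and Dcn. Their counts are likewise uncertain. Cybc1 is not analysed here, and the results of 2 other genes of the wider lists are not reported here and are left out of those lists' counts. The 14 alternatives covered scaling, DESeq2 1.42.0, the low-count filter, a replicate block, a robust fit, counts divided by 2, thinning to 1918096 fragments per library (1 draw) and leaving out each library. For rows of at least 20 fragments in a pair of replicates, the median chi-square was 1.48 times counting noise in si3m and 1.4 times in siNT. No pair was merged, although repeat preparations of a single culture could give the same excess.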

Additional observations from a re-analysis of the deposited data

How the results depend on the processing

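Over all genes, 1771 were higher and 1757 lower. Total count scaling moved the split to 1428 higher and 2217 lower, and DESeq2 gave 1212 higher and 1344 lower. Every alternative left each of these counts within 1.5 times. Leaving out each library in turn gave 1292 to 1982 higher and 1245 to 1757 lower. Among the 9 genes, the 1 higher call became 0 in DESeq2, and 0 to 2 when a library was left out (2, Cyba and Nox4, without siNT replicate 1). The 1 lower call became 0 with upper quartile scaling and with no low-count filter, and 0 to 1 when a library was left out. The log2 fold change of Cyba was 0.83 in DESeq2 and 0.62 with thinned libraries, both without a call, and 0.67 to 1.04 with a library left out. Nox4 passed with thinned libraries (0.71) and ranged from 0.38 to 0.79 with a library left out. Rac1 did not pass with upper quartile scaling (-0.13) or with no low-count filter (-0.13), and ranged from -0.18 to -0.11 with a library left out. Xdh ranged from -0.11 to 0.036 there, positive without siNT replicate 2. Eif3m kept a log2 of -1.59 in the robust fit, where its adjusted p was 0.0522, and ranged from -1.83 to -1.35 with a library left out. The wider lists gave 3 to 6 higher and 2 to 3 lower with a library left out. Where a library is left out, the lone one of its group is assumed to vary like the pair of the other group. The cause of these changes was not tested.

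Among 24 genes named from the wider lists, 8 that had no call changed sign in some alternative. Duox2 was at 0.028 with the replicate block and Por at -0.068 with total count scaling. With a library left out, log2 values ranged from -0.51 to 0.75 for Duox2, from -0.12 to 0.35 for Dock1, from -0.13 to 0.077 for Mocs1, from -0.055 to 0.65 for Mocos, from -0.10 to 0.027 for Ero1a, from -0.042 to 0.080 for Por, from -0.65 to 0.0013 for Aox1 and from -0.20 to 0.057 for Sod1.

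The labels give both groups replicate numbers 1 and 2, which share only a number. Deviations of same-numbered libraries from their group means had a correlation of -0.023 across genes. With the replicate block 1851 genes were higher and 1843 lower, and the log2 value of Cyba was 0.84 (adjusted p = 0.0269), of Rac1 -0.15 (adjusted p = 0.0277) and of Nox4 0.57 (adjusted p = 0.0855). Among the tested members, Eif3m and the 24 genes named from the wider lists, the block changed the call of Sh3pxd2a alone. It went from no call to lower (log2 -0.21, edgeR adjusted p = 0.0427). Mocs3 and the markers were not checked in this way. Depth limits the 4 genes at the floor, which rest on 0 to 4 fragments per group. With no low-count filter, where 19786 genes were tested, Cybb, Nox1, Ncf1, Ncf4 and Rac2 did not pass, with adjusted p from 0.229 to 0.892.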

Other observations

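Of the genes of the wider lists that are best known from blood cells, 4 had 0 counts in both si3m libraries and were picked for that after their values were seen. Vav1, an exchange factor for Rac in blood cells, had 0 deposited counts in both si3m libraries and 8 and 4 in siNT. Prex1, an exchange factor for Rac abundant in neutrophils, had 0 in both si3m libraries and 2 and 4 in siNT. Dock2, the Rac exchange factor of lymphocytes, had 0 in both si3m libraries and 0 and 6 in siNT, and the kinase gene Prkcb had 0 in both si3m libraries and 2 in each siNT library. Arhgdib, which holds Rac proteins in the cytosol of blood cells, did not share this, with 0 and 12 counts in si3m and 10 and 4 in siNT. Of the 4 genes, only Vav1 exceeded the floor of 6 counts, in siNT replicate 1. Over the whole series, 209 of 31038 rows had 0 counts in both si3m libraries and counts in both siNT libraries. The 31038 rows include rows without any count and rows far above the floor. That share is therefore no background for genes near the floor, for which no share was computed. Vav1, Prex1 and Prkcb met that pattern, and Dock2, with counts in siNT replicate 2 only, did not. Of the 209 rows, 186 had at most 6 counts in every library. The opposite pattern was seen in 663 rows, with the si3m libraries the more deeply sequenced.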
